A study of Mus musculus with 3 samples.

Results

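Integrins and laminins, the main receptors and the main glycoproteins of the basement membrane, were read in untreated cortical neurons of the mouse. Members were taken by gene symbol: every protein-coding gene named Itga, Itgb with a single digit, Lama, Lamb or Lamc with a digit. This gave 37 genes of the 18221 protein-coding genes measured, namely 18 integrin alpha subunits, 8 integrin beta subunits and 11 laminin chains. The rule itself uses no expression value, though it was drawn up with earlier results of these libraries known. The series is about the topoisomerase TOP2B in neurons. The neurons were WT, dissociated at embryonic day 16 from Swiss-Webster mice, an outbred stock, and grown on poly-D-lysine in neurobasal medium with B27, with no treatment. There was 1 group of 3 libraries, so no contrast between conditions exists, and every comparison below is between genes or transcripts within a library. Poly-D-lysine is a charged polymer, and the labels name no laminin coating of the plates. Separate cultures or litters are not named for the 3 libraries, and the spread between them, which is all that p-values measure here, may be technical.

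An integrin is a receptor of 1 alpha and 1 beta subunit that spans the membrane, binds matrix outside the cell and, through the short tail of the beta subunit, couples to talin, kindlin and the actin skeleton inside it. A laminin is a cross-shaped trimer of 1 alpha, 1 beta and 1 gamma chain, in which the end of the alpha chain is bound by integrins and by dystroglycan. In the developing cortex both families are known for the attachment of radial glia to the pial basement membrane, the placing of migrating neurons and the growth of axons.

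Levels are TPM, the abundance of a transcript per unit of its length scaled to a fixed total per library, and a gene is given by its longest protein-coding transcript unless another is named. Summed over the transcript with most reads of each gene, the libraries held 26782399, 23658567 and 23297511 reads, and in libraries 1, 2 and 3 a 2 kb transcript at 1 TPM had 103, 86.5 and 91.4 reads. Pan-neuronal markers summed to between 1851 and 2083 TPM over 8 genes. All 8 astrocyte markers and all 6 radial glia markers were detected as well, at 618 to 752 and 301 to 389 TPM summed. Detected means a mean of at least 1 TPM, which 61.5% of all protein-coding genes reached. Oligodendrocyte lineage markers were detected in 7 of 8 cases, at 50.5 to 84.7 TPM summed, and mural markers in 3 of 7, at 5.63 to 8.95 TPM summed. Of 8 fibroblast and meningeal markers 1, Dcn, was detected, and the list summed to 2.68 to 4.49 TPM. Of 7 endothelial markers none reached 1 TPM and Cldn5 was at 0 in all libraries. In such bulk RNA, fewer cells of a type and less RNA per cell cannot be told apart.

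Of the 37 members, 9 had a mean of at least 1 TPM, the limit called detected here, which was 24.3% against 61.5% of all protein-coding genes. The same 9 were above the limit in each library: Itgb1, Itgb8, Itga6, Itgb5, Itgav, Itga3, Lamb1, Lamc1 and Lamb2. The median member level was 0.27 ± 0.05 on the log2(TPM + 1) scale, against 1.94 ± 0.00433 for all protein-coding genes (SD of the 3 library medians). Of the 28 members below the limit, 23 were below 0.5 TPM and 12 below 0.1 TPM. Detected members varied between libraries about as much as detected genes at large, with a median coefficient of variation of 7.77% against 7.89%. Only 3 alpha subunits, 3 beta subunits and 3 laminin chains were thus detected, and the 3 laminin chains included no alpha chain.

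**Figure D1:**
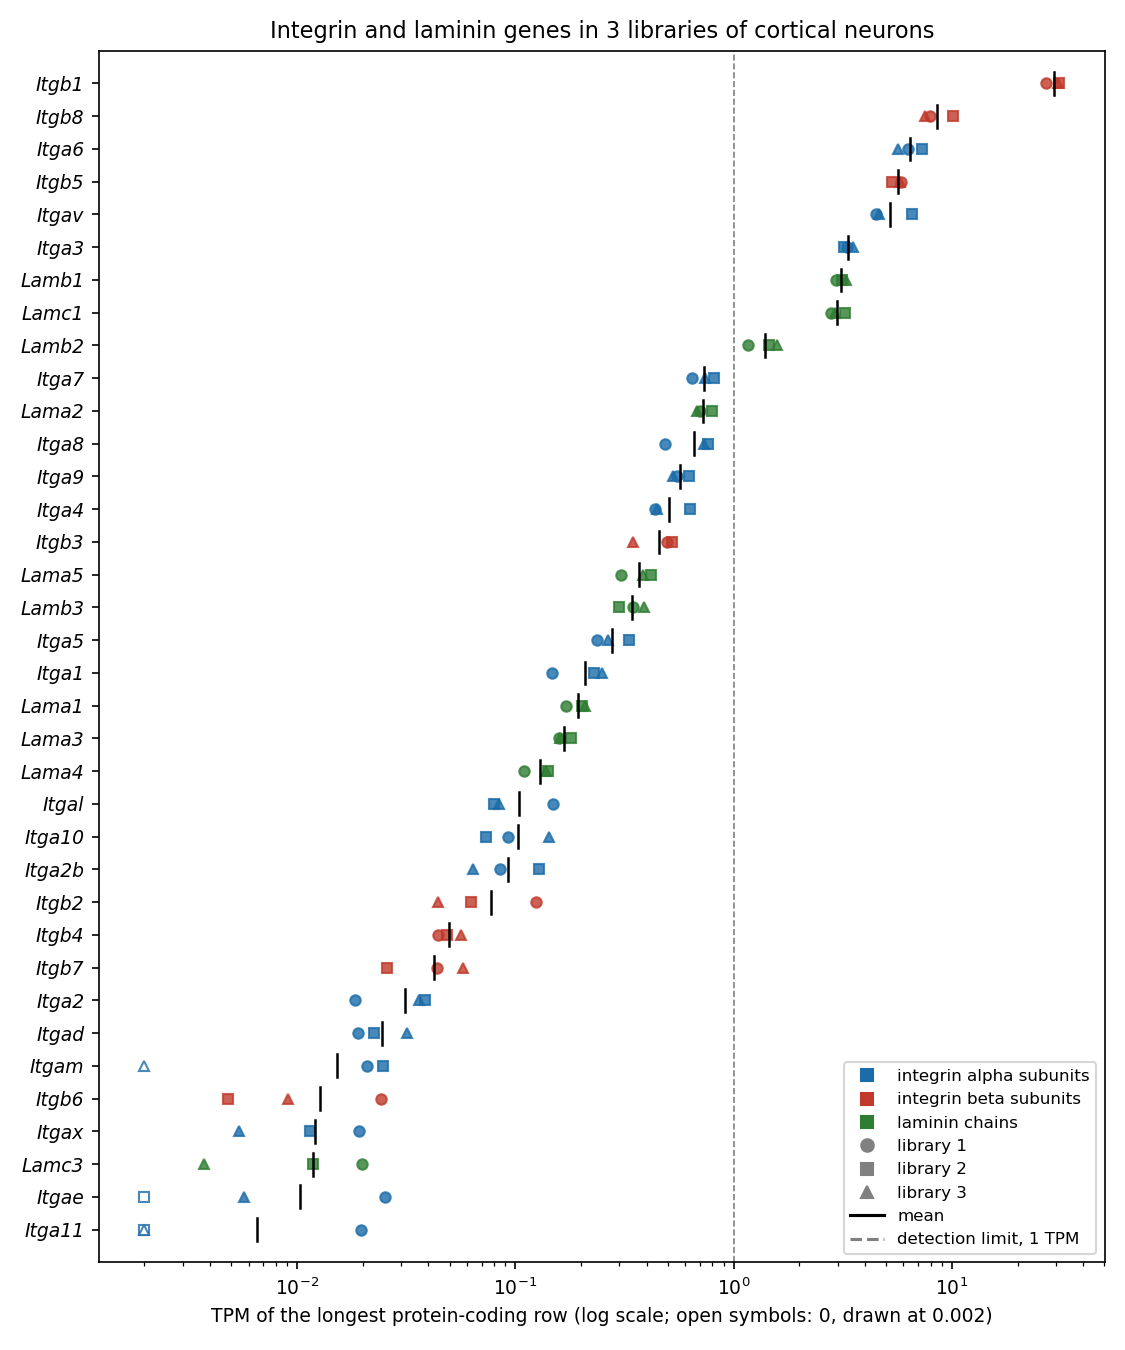
TPM of 36 integrin and laminin genes (log axis) in libraries 1, 2 and 3, ordered by mean, with a black bar at the mean and a dashed line at 1 TPM. A reader should see 9 genes right of the line, Itgb1 apart from the rest at 26.8 to 31.0 TPM, and laminin alpha chains left of the line.

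Among beta subunits, Itgb1 stood first. Itgb1 (chr8:128685654-128733200, plus strand, mm10) pairs with most alpha subunits and is the common chain of laminin, collagen and fibronectin receptors. It had 26.8, 31.0 and 30.6 TPM in libraries 1, 2 and 3, from 5250, 5105 and 5329 reads. Itgb1 was the highest member in every library, and it exceeded Itgb8, the next by mean level, by 1.68 ± 0.19 log2 units (SD over 3 libraries, above 0 in 3 of 3). Itgb8 (chr12:119158022-119238802, minus strand) pairs with the alpha-v subunit and is known for the activation of latent TGF-beta, including in neural progenitors. Its level was 7.90, 10.2 and 7.53 TPM, highest in library 2. Itgb5 (chr16:33829665-33949146, plus strand), another alpha-v partner and a vitronectin receptor, had 5.83, 5.31 and 5.78 TPM, lowest in library 2.

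The relation of Itgb5 and Itgb8 turned on the transcript read. By the longest protein-coding transcripts Itgb5 averaged 5.64 ± 0.290 TPM and Itgb8 8.53 ± 1.42 TPM (SD, n = 3), a difference of -0.51 ± 0.27 log2 units that lay below 0 in each library. By the highest transcript of each gene the difference reversed to 0.26, and by the sum of all transcripts to 1.21. The highest Itgb5 row was a processed transcript of 631 bases without a coding frame, at 10.6, 9.57 and 10.9 TPM, which was 1.84 times the longest coding one. No order of the pair can therefore be given from these values.

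The remaining 5 beta subunits were below the limit, which left 37.5% detected, against 61.5% of all protein-coding genes. Itgb3, the fibrinogen and vitronectin receptor chain of platelets and also an alpha-v partner, had 0.496, 0.520 and 0.344 TPM and lay 2.19 ± 0.14 log2 units below Itgb5. Itgb4, which pairs with Itga6 in the hemidesmosomes of epithelia and binds laminin, had 14, 13 and 16 reads, or 0.0440, 0.0484 and 0.0564 TPM. The leukocyte chain Itgb2 had 0.125, 0.0623 and 0.0442 TPM, from 19, 8 and 6 reads, highest in library 1. Itgb7, the other leukocyte chain, averaged 0.0423 TPM and Itgb6, an alpha-v partner of epithelia, 0.0128 TPM. Neither Itgb2 and Itgb4 nor Itgb4 and Itgb7 were separated beyond the spread between libraries.

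The 3 detected beta subunits differ in the tail through which integrins meet the cytoskeleton. In most beta subunits the tail holds NPxY motifs, where N is asparagine, P proline, x any residue and Y tyrosine, or phenylalanine in a variant. The talin head binds the first such motif and kindlin the more distal one. The last 150 coding bases of each gene, stop codon included, are shown from its longest protein-coding transcript (GRCm38, GENCODE M21), 5′ to 3′, with the codons of NPxY or NPxF in capitals. They lie at chr8:128726103-128732088 on the plus strand for Itgb1, chr16:33947828-33948752 on the plus strand for Itgb5 and chr12:119163117-119163363 on the minus strand for Itgb8, introns removed.
Itgb1: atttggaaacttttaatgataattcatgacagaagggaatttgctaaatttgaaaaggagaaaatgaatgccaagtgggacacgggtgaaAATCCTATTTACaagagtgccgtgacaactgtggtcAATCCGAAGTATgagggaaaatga
Itgb5: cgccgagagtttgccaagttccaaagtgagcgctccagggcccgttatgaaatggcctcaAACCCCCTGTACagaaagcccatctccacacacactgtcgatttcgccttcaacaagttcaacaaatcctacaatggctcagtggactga
Itgb8: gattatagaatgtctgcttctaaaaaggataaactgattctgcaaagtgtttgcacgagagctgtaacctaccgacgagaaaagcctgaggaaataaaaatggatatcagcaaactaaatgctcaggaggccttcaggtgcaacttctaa
Itgb1 holds the motif 2 times, Itgb5 1 time and Itgb8 0 times in these bases, and a search of the whole coding sequence, of 798, 799 and 767 codons without the stop, gave the same numbers. The absence of a match says only that these residues do not occur in that order.

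Alpha subunits gave lower sums than beta subunits. Over all 18 alpha genes the levels summed to 17.1, 20.8 and 17.1 TPM, against 41.3, 47.1 and 44.4 TPM over the 8 beta genes. The ratio of beta to alpha sums was 2.42 ± 0.165 (SD, n = 3), and Itgb1 alone exceeded the sum of all alpha genes in each library. Since 1 alpha joins 1 beta subunit in the protein, the sums describe messenger RNA only.

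A laminin receptor, Itga6, was the highest alpha subunit by the longest transcripts. It exceeded Itgav, the next, by 0.26 ± 0.13 log2 units, with the difference above 0 in 3 of 3 libraries. By highest transcripts Itga6 averaged 7.37 TPM and Itgav 7.16 TPM, and in library 3 Itgav, at 6.75 TPM, was above Itga6, at 6.19 TPM. Itga6 (chr2:71786978-71856758, plus strand) binds most laminins and is a classical marker of neural progenitors and other stem cells. It had 6.29, 7.31 and 5.67 TPM, from 1389, 1362 and 1116 reads, highest in library 2. Itga3 (chr11:95044474-95076714, minus strand), a laminin receptor that has also been studied as a receptor of reelin in migrating cortical neurons, had 3.31, 3.21 and 3.54 TPM. Itga6 exceeded Itga3 by 0.77 ± 0.21 log2 units, with the difference above 0 in 3 of 3 libraries. Itga7, the laminin receptor of muscle, had 0.647, 0.813 and 0.736 TPM and lay 1.33 ± 0.10 log2 units below Itga3. Thus 2 of the 3 laminin-binding alpha subunits were detected, a share of 66.7% that is close to the 61.5% of all protein-coding genes.

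Among the 4 alpha subunits that bind the RGD peptide, Itgav alone was detected, 25% against 61.5% of all protein-coding genes. Itgav (chr2:83724397-83806916, plus strand) had 4.51, 6.56 and 4.62 TPM, from 1629, 1999 and 1489 reads, highest in library 2. It exceeded Itga5, the classical fibronectin receptor, by 2.27 ± 0.20 log2 units (3 of 3 libraries above 0), with Itga5 at 0.236, 0.333 and 0.265 TPM. The pseudocount of 1 compresses this difference, which was 3.80 with a pseudocount of 0.1 and 3.46 with scaling to nuclear protein-coding genes. With summed transcripts it was 4.36, but this sum adds 9 transcripts of Itgav and 1 of Itga5, and shared reads are counted more than once. Itga8, a nephronectin receptor, averaged 0.661 ± 0.151 TPM by its longest transcript, under the limit. By its highest transcript it averaged 1.12 ± 0.225 TPM and by summed transcripts 4.07 TPM, both above the limit. Itga2b, the platelet alpha chain, averaged 0.0922 TPM. Library 2 was the highest of the 3 for Itgb8, Itga6 and Itgav, while Itgb5 and Itga3 were lowest there.

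No collagen receptor, no leukocyte subunit and no member of the Itga4 family was detected by its longest transcript, while 61.5% of all protein-coding genes were. By summed transcripts Itga9, at 3.31 TPM, and Itga4, at 1.25 TPM, passed the limit. The highest of 4 collagen-binding alpha subunits was Itga1, at 0.147, 0.228 and 0.249 TPM, and Itga10, Itga2 and Itga11 averaged between 0.00654 and 0.103 TPM. Itga10 shares 1739 bases, 34.5% of its transcript, with the gene model Gm42957 on the same strand, which had 1.81 TPM, so its value is uncertain. The highest of the Itga4 family was Itga9, a receptor of tenascin-C, at 0.553, 0.623 and 0.527 TPM. Itga4, the receptor of VCAM1, averaged 0.503 TPM and overlaps the antisense gene Cerkl over 905 bases. Itga7, Itga8, Itga9 and Itga4 followed each other in the order of levels. Of these neighbours, Itga7 and Itga8 differed by 0.06 ± 0.07 log2 units and Itga8 and Itga9 by 0.08 ± 0.13, both within the spread between libraries, while Itga9 and Itga4 differed by 0.06 ± 0.06 with only 2 of 3 libraries above 0.

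Of the 5 leukocyte alpha subunits, Itgal was highest at 0.149, 0.0797 and 0.0838 TPM, from 40, 18 and 20 reads. Itgad, Itgam, Itgax and Itgae averaged between 0.0104 and 0.0245 TPM. Itgal and Itgb2, which together form a leukocyte receptor of ICAM proteins, were both highest in library 1. The 8 microglial markers summed to 3.06, 2.67 and 1.56 TPM, also highest in library 1. Among them Tmem119 was at 0 in all libraries, and Aif1, the only one detected, had 0.870, 1.51 and 0.700 TPM, highest in library 2. Their part in the values of Itgal and Itgb2 was not tested. Itgae was at 0 reads in library 2, where 3 reads would give 0.0180 TPM, and Itga11 was at 0 reads in libraries 2 and 3, where 3 reads would give 0.0140 and 0.0132 TPM. Itgam was at 0 in library 3. Itgam shares 73.7% of its transcript with the model Gm49368 on the same strand, and only 27.6% of its 50-base words occur in no other gene's transcript, so its level is uncertain.

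**Figure D2:**
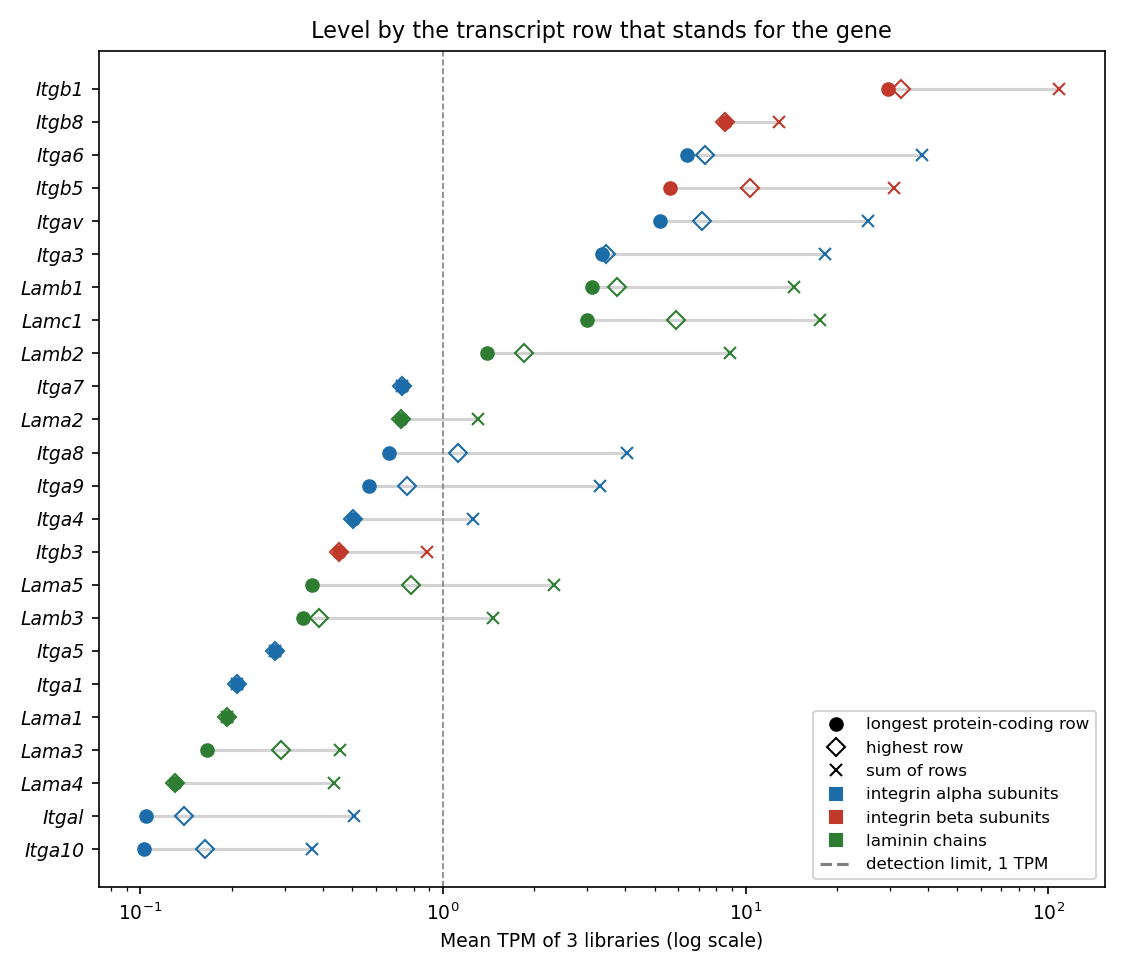
Mean TPM over 3 libraries (log axis) of 24 members, none with a mean under 0.1 TPM, by the longest protein-coding transcript (filled circle), the highest transcript (open diamond) and the sum of all transcripts (cross), with a dashed line at 1 TPM. The circles of 9 genes lie right of the line, Itga8 crosses it by its highest transcript, and Itgb5 and Lamc1 move farthest among detected genes between circle and diamond.

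The transcript chosen moved the count of detected members. With the highest transcript 10 of 37 members were detected, against 63% of all protein-coding genes. With the sum of all transcripts 15 of 37 were, against 67.3%, the added ones being Itga8, Itga9, Itga4, Lama2, Lama5 and Lamb3. Transcripts of a gene that share exons carry the same reads in this table, so the sums count reads more than once. At a limit of 0.5 TPM 14 members passed, against 66.4% of all genes, and at 5 TPM 5 members passed, against 40.5%. The deposited values are scaled over all transcripts, noncoding and overlapping ones included. Scaled instead over the gene values of nuclear protein-coding genes, 18 of 37 members reached 1 TPM against 71.5% of all genes, and the median of all genes moved by 1.91 log2 units. Under each of these 5 readings the members' share was below that of all genes.

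The cytoplasmic tails of Itga6 and Itga3 come in A and B forms, made by the use or skipping of a cassette exon near the 3′ end that ends the reading frame. This exon was looked at after the levels had been seen. In Itga6 the exon (chr2:71853534-71853663) has 130 bases, 3.02% of the 4310 bases of the transcript that holds it. In Itga3 it (chr11:95046449-95046590) has 142 bases, 2.92% of 4861 bases. The coding part of the final coding exon is shown for the A form, which holds the cassette exon, and for the B form, which skips it, 5′ to 3′ (GRCm38, GENCODE M21). Capitals mark the codons of GFFKR, the residues next to the membrane that are shared by most alpha subunits. The 4 stretches lie at chr2:71853534-71853641 and chr2:71855854-71856015 on the plus strand and chr11:95046480-95046590 and chr11:95045608-95045763 on the minus strand.
Itga6 A form: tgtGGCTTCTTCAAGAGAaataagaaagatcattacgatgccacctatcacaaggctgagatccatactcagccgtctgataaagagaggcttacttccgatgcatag
Itga6 B form: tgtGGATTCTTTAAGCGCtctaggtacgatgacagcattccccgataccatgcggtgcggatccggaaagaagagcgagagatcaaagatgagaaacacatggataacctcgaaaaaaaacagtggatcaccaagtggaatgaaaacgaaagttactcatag
Itga3 A form: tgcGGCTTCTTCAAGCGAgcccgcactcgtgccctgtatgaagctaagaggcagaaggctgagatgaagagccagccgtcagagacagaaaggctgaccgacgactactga
Itga3 B form: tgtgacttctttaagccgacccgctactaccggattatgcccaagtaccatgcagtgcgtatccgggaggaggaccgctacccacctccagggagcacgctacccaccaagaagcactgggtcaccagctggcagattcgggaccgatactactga
In 3 of these the run GFFKR was found in full, and in the B form of Itga3 it was not.

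The A form held 1389, 1362 and 1116 reads for Itga6, and the B form 1364, 1322 and 1091 reads. The excess of 25, 40 and 25 reads was 1.80% (95% Wilson interval 1.22 to 2.64), 2.94% (2.16 to 3.97) and 2.24% (1.52 to 3.29) of the reads of the A form. For Itga3 the same reads were 824, 674 and 785 in the A form and 822, 671 and 781 in the B form. Here the excess of 2, 3 and 4 reads was 0.243% (0.0666 to 0.881), 0.445% (0.151 to 1.30) and 0.510% (0.198 to 1.30). In each library the net excess was below the exon's share of the transcript, 3.02% in Itga6 and 2.92% in Itga3. For Itga6, however, the intervals of libraries 2 and 3 include 3.02%. The excesses are net differences, since each form holds bases that the other lacks. Apart from the exon, 75 bases of Itga6 and 56 of Itga3 occur only in the A form, and 51 and 34 only in the B form. The intervals treat the net excess as a plain count, so they can be too narrow for a difference between counts. They cannot tell how often the exon was used, and no test was made.

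Laminin chains gave 8.85, 10.1 and 9.84 TPM summed over 11 genes, against 41.3, 47.1 and 44.4 TPM for the 8 integrin beta subunits. Lamb1 (chr12:31265293-31329644, plus strand), the beta chain of most laminins of the embryo, had 2.96, 3.13 and 3.27 TPM, from 877, 783 and 863 reads. Lamc1 (chr1:153218922-153332786, minus strand), the gamma chain of nearly all basement membrane laminins, had 2.81, 3.25 and 2.91 TPM. By these longest transcripts Lamb1 and Lamc1 differed by 0.05 ± 0.08 log2 units and were not separated beyond the spread between libraries. By highest transcripts Lamc1 was above in each library, at 4.66, 6.86 and 6.18 TPM against 3.54, 3.87 and 3.82 TPM for Lamb1. Lamb2 (chr9:108479857-108490530, plus strand), the beta chain known from the neuromuscular synapse, had 1.16, 1.46 and 1.57 TPM, and Lamb1 exceeded it by 0.78 ± 0.08 log2 units in 3 of 3 libraries. Lamc3, a gamma chain whose human gene is linked to malformed folding of the occipital cortex, had 6, 3 and 1 reads, or 0.0199, 0.0118 and 0.00373 TPM. Lamc1 exceeded Lamc3 by 1.98 ± 0.09 log2 units on the log2(TPM + 1) scale (3 of 3 libraries above 0), which understates the ratio of so low a gene. The difference was 4.79 with a pseudocount of 0.1 and 3.85 with scaling. With summed transcripts it was 4.18, over 5 transcripts of Lamc1 and 2 of Lamc3, with shared reads counted more than once.

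The 5 laminin alpha chains averaged below 1 TPM by their longest and by their highest transcripts, a limit that 61.5% and 63% of all protein-coding genes reached. Summed transcripts put Lama5 at 2.32 and Lama2 at 1.31 TPM, and scaling to nuclear protein-coding genes put Lama2 at 3.44 TPM. Lama2 (chr10:26981285-27616843, minus strand), the alpha chain of muscle and peripheral nerve that is lost in merosin-deficient muscular dystrophy, was the highest at 0.700, 0.796 and 0.681 TPM. Lama5, a widespread alpha chain, had 0.303, 0.420 and 0.384 TPM and exceeded Lama4, the alpha chain of vessels, by 0.28 ± 0.04 log2 units in 3 of 3 libraries. Since both are low, the size of this difference depends on the reading, and it was 0.65 with highest transcripts, 0.77 with scaling to nuclear protein-coding genes, 1.03 with a pseudocount of 0.1 and 1.2 with summed transcripts. Lama4 averaged 0.130 TPM, Lama1, the first alpha chain of the embryo, 0.194 TPM and Lama3 0.166 TPM. Lama3 and Lamb3 are chains of the laminin of epithelial anchorage, and Lamb3 averaged 0.344 TPM. The 3 beta chains summed to 4.46, 4.89 and 5.23 TPM, against 1.44, 1.74 and 1.57 TPM for the 5 alpha chains. The ratio of the beta to the alpha sum was 3.08 ± 0.258 (SD, n = 3). With the highest transcript of each gene it was 2.83 and with summed transcripts 5.27, so the beta sum was above the alpha sum by each of these readings.

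Each of the 7 differences between paired genes (Itga6 and Itga3, Itgav and Itga5, Itgb5 and Itgb8, Itgb1 and Itgb5, Lama5 and Lama4, Lamb1 and Lamb2, Lamc1 and Lamc3) had the same sign in all 3 libraries. Itgb1 exceeded Itgb5 by 2.20 ± 0.16 log2 units. By an exact two-sided permutation that flips the signs of the 3 differences, p was 0.25 for each pair (n = 3), and 0.25 after Benjamini-Hochberg adjustment over the 7 pairs. This is the smallest p that 3 libraries allow, so the test cannot pass any usual threshold here. In the order of detected members, Itga6 and Itgb5 differed by 0.16 ± 0.22 log2 units and Itgb5 and Itgav by 0.11 ± 0.32, so these neighbours were not separated. Itgb8 lay 0.36 ± 0.07 above Itga6, Itgav 0.50 ± 0.30 above Itga3, Itga3 0.08 ± 0.05 above Lamb1 and Lamc1 0.74 ± 0.12 above Lamb2. Other readings turned part of this order. By highest transcripts Lamc1, at 5.90 TPM, was above Lamb1, at 3.75 TPM, and Lamb1 was above Itga3, at 3.45 TPM. By summed transcripts Itga6, at 38.4 TPM, was above Itgb8, at 12.9 TPM.

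The reads of Lama2 were unevenly spread over its 65 exons. A shorter transcript model covers the first 27 exons with 4046 of its 4244 bases. It had 18, 24 and 29 reads, against 345, 331 and 299 reads on the full transcript of 9614 bases. Per length this was 0.0827, 0.131 and 0.150 TPM for the first 27 exons, against 0.700, 0.796 and 0.681 TPM for the whole. A transcript that shares only the last 3 exons had 51, 35 and 28 reads, most of its own length lying outside the full transcript. Hence at least 276, 272 and 242 reads, 80%, 82.2% and 80.9% of the total, fell in the 35 exons between, which hold 4846 bases. The 5′ part of the gene, which encodes most of the short arm of the laminin cross, thus had few reads in each library.

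The same measure was taken for all genes with a longest transcript of at least 5000 bases, at least 100 reads and a shorter transcript lying within it. This gave 2507 partial transcripts of 1111 genes, each of at least 200 bases, at most 50% of the full length and at least 90% shared with it. The ratio of partial to full TPM had a median of 0.953, 1.11, 1.24, 1.26 and 1.35 over 5 equal sections of the transcript in order from its 5′ end, so the medians were higher toward the 3′ end. The 27-exon model of Lama2 had a ratio of 0.167. Of the 799 partial transcripts centred in the same section, 0.501% were as low. This model and the Itgav and Lamb1 models given next had the lowest ratios of the 17 partial transcripts of members. The shares as low therefore describe their place among all genes and are not p-values. An Itgav model of the first 3 of 30 exons had 41, 25 and 41 reads and a ratio of 0.211, and 1.80% of the 1058 partial transcripts in the section at the 5′ end were as low. For a Lamb1 model of the first 2 of 33 exons the ratio was 0.401, and 5.77% of the same partial transcripts were as low. In the other direction, a Lamc1 model of 7 inner exons, annotated as a target of nonsense-mediated decay, had 4.66, 6.86 and 6.18 TPM, 1.97 times the longest Lamc1 transcript. Whether these ratios come from transcripts, from annotation or from read coverage was not tested. For Lama3, a model of the 3′ part with 38 of 75 exons held 74, 76 and 75 reads, against 86, 82 and 77 on the full transcript. Of the bases of this model 96.5% are shared with the full transcript, so part of its reads may lie outside it.

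**Figure D3:**
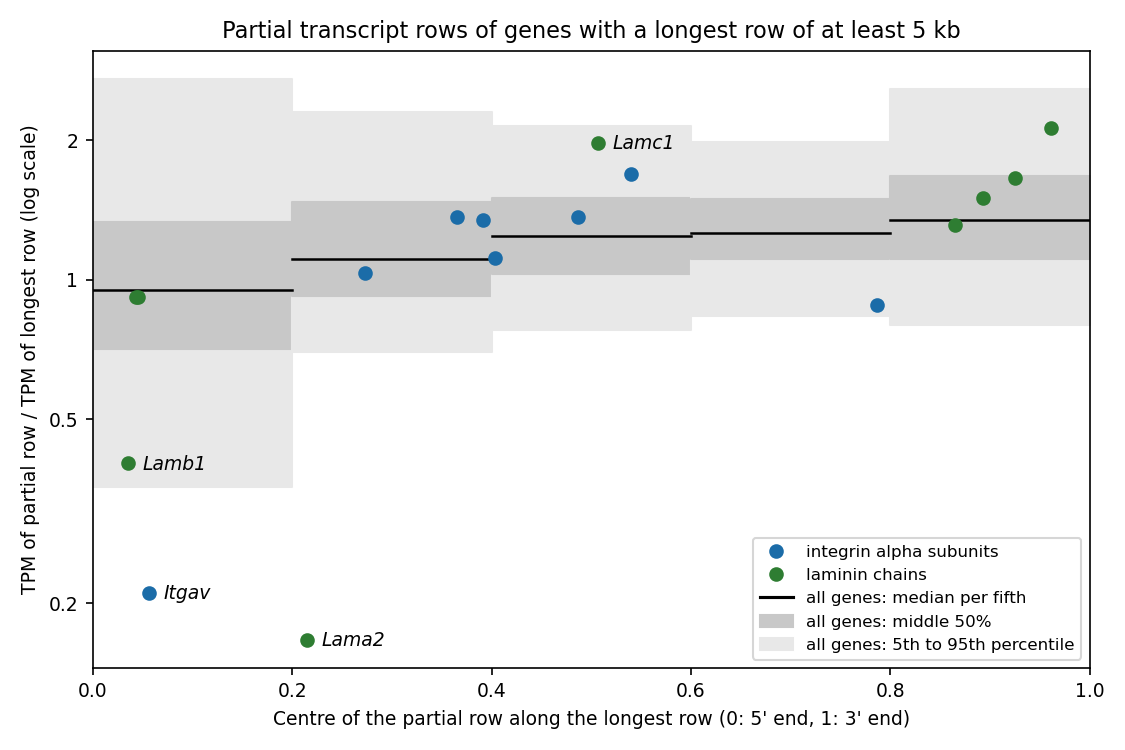
Ratio of the TPM of a partial transcript to that of the longest transcript (log axis) against the position of its centre (0 at the 5′ end, 1 at the 3′ end), for 17 partial transcripts of 8 members (points) and for all genes with a longest transcript of at least 5000 bases (black median, dark band for the middle 50%, light band for the 5th to 95th percentile). Lama2 at 0.167 and Itgav at 0.211 lie under the light band, Lamb1 at 0.401 and Lamc1 at 1.97 within it.

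The genes that act with integrins and laminins were read from 7 lists of known partners. Of 25 focal adhesion genes 18 were detected, 72% against 61.5% of all protein-coding genes, with a median level of 2.83 on the log2(TPM + 1) scale, against 1.94 for all protein-coding genes. The highest were Fyn, a kinase downstream of integrins and reelin, at 43.9 ± 1.21 TPM, the adaptor Crk at 34.9 ± 1.65 TPM and integrin-linked kinase Ilk at 27.6 ± 2.15 TPM (SD, n = 3). Of the kindlins, which bind the distal NPxY motif shown above, Fermt2 had 17.1, 19.4 and 18.8 TPM, while Fermt3 of blood cells averaged 0.161 TPM and Fermt1 of epithelia 0.00281 TPM. Tln2, the talin of brain and muscle, averaged 6.12 ± 0.795 TPM and Tln1 2.04 ± 0.133 TPM, but by highest transcripts Tln2 was at 6.41 and Tln1 at 7.0 TPM. Of 18 genes that regulate or traffic integrins 14 were detected, 77.8% against the same 61.5%, with a median of 3.08. The highest were the tetraspanins Cd81 at 98.9 ± 5.18 TPM and Tspan7 at 67.7 ± 1.58 TPM and the small GTPase Rap1b at 54.9 ± 1.89 TPM. By highest transcripts Tspan7, at 273 TPM, was above Cd81, at 102.5 TPM.

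On the side of the matrix, 7 of 15 basement membrane partners of laminin were detected, 46.7% against 61.5% of all protein-coding genes, with a median of 0.87 against 1.94. Agrn, the heparan sulfate proteoglycan agrin that links laminin to dystroglycan, led with 19.7, 18.2 and 17.0 TPM, followed by the type IV collagen chains Col4a1 at 4.73 ± 0.242 TPM and Col4a2 at 4.66 ± 0.0356 TPM. The nidogens Nid1 and Nid2, which bridge laminin and collagen IV, averaged 0.0812 and 0.139 TPM, and the perlecan gene Hspg2 averaged 0.189 TPM. Of 20 genes listed as other integrin ligands 11 were detected, 55% against 61.5%, with a median of 1.58. The highest was Mfge8, an RGD protein bound by alpha-v integrins, at 61.7 ± 6.32 TPM. Next came Adam10, a membrane protease whose place among ligands is uncertain, at 23.2 ± 1.56 TPM, and tenascin-R, Tnr, at 10.3 ± 0.555 TPM. Fibronectin, Fn1, averaged 2.07 ± 0.0442 TPM and vitronectin, Vtn, 0.371 ± 0.0805 TPM.

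Of 11 genes listed as laminin receptors other than integrins or as their associated proteins, 7 were detected, with a median of 3.32. This share of 63.6% is close to the 61.5% of all protein-coding genes. The list includes the sarcoglycans Sgca, Sgcb and Sgce, which are not themselves laminin receptors. Sdc3, the neuronal syndecan, had 71.1 ± 3.97 TPM, Rpsa, a ribosomal protein also called the laminin receptor whose near-identical copies in the genome make its value uncertain, 30.7 ± 4.17 TPM and the sarcoglycan Sgcb 30.2 ± 0.886 TPM. Dag1, which encodes dystroglycan, had 23.8, 26.3 and 23.6 TPM. All 12 genes that build the laminin-binding sugar of alpha-dystroglycan were detected, with a median of 3.36. B4gat1 was at 29.2 ± 1.54 TPM, Pomgnt1 at 14.2 ± 0.918 TPM and Ispd, the lowest, at 1.03 ± 0.151 TPM. Of 10 genes of TGF-beta activation, the process that alpha-v integrins such as that of Itgb8 are known for, 5 were detected, 50% against 61.5%, with a median of 0.84. Ltbp4 led this list at 3.84 ± 0.469 TPM, then the ligand Tgfb2 at 2.43 ± 0.229 TPM and the receptor Tgfbr1 at 1.98 ± 0.174 TPM, while Tgfb1 averaged 0.0513 TPM. The lists describe these libraries and no test sets them against other genes.

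**Figure D4:**
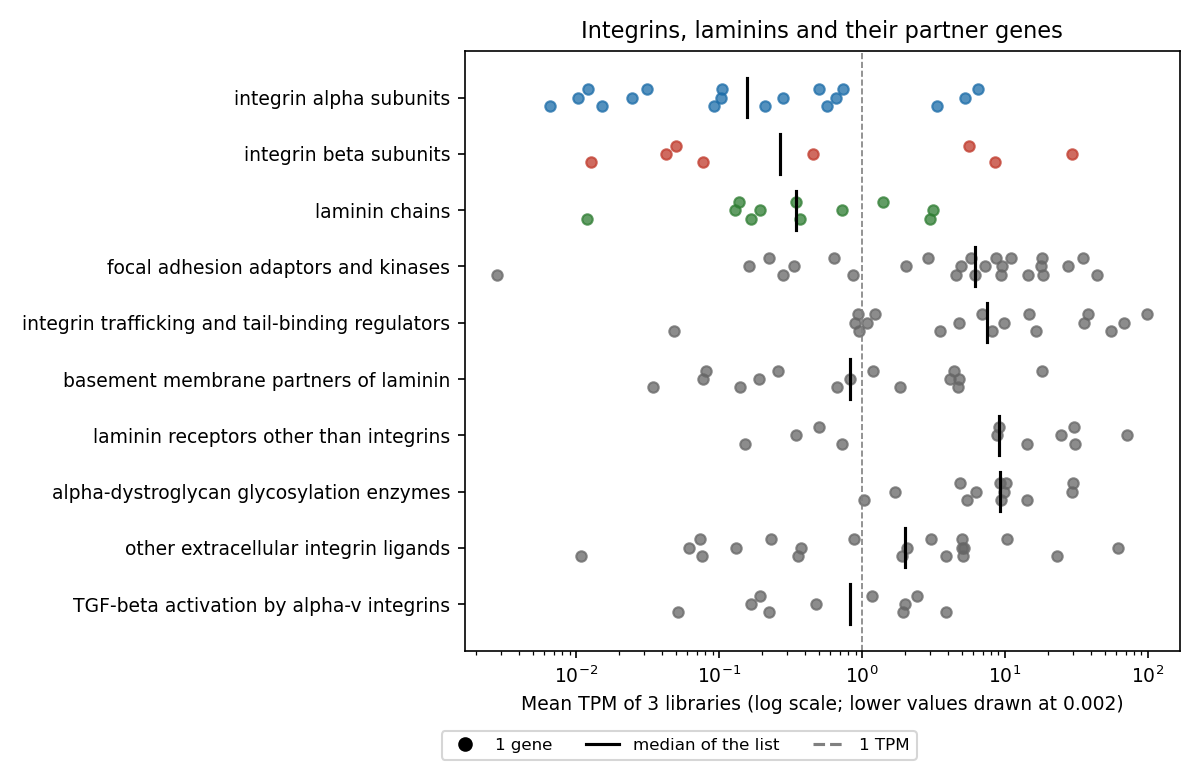
Mean TPM over 3 libraries (log axis) of each gene (point) of the 3 member families and 7 partner lists, with a black bar at the median of each list and a dashed line at 1 TPM. All 12 glycosylation genes lie right of the line, while 9 of the 37 integrin and laminin genes do.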

How the data were processed

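RNA of 3 untreated wild-type libraries was sequenced from poly-A RNA with a strand-specific kit, per the labels' protocols. TPM per transcript and library were computed by the authors and deposited in 1 table, per the file headers. Trimmomatic, TopHat, Bowtie, HTSeq and the mm10 build are named without version or role, per the submitters' processing notes. The counting mode, strand setting, read length and handling of reads that map to several places are not stated in the labels or headers. Of 84660 transcripts, 83017 were matched by identifier to GENCODE M21 (GRCm38), which gave symbols, types and exons. For 99.8% of the transcripts of unchanged span with a value above 0 in a library the product of TPM and exonic length lay within 0.01 of a whole multiple of 1 number, which gave reads per transcript and the depth. Reads are not given for 9 members whose deposited span differs from M21. The read counts of no pair of libraries agreed within sampling noise (chi-square per degree of freedom at least 12.3), so no library was taken for a second copy of another. This does not show that they are independent cultures. Depth limits low members: 3 reads were taken as the floor.

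Levels were averaged over the 3 libraries of the 1 group. Differences were taken within a library on log2(TPM + 1) and tested by an exact sign-flip permutation, checked on simulated data. Values in every library are given for members of at least 5 TPM, for the highest of each role group and for detected members whose highest transcript is at least 1.5 times the longest. Others were added because a comparison names them, and some genes are counted but not reported here by name. The members and lists were chosen with earlier results of these data known. The alternatives were the highest transcript, summed transcripts, limits of 0.5 and 5 TPM, a pseudocount of 0.1, the median library, scaling to nuclear protein-coding genes (factors 4.72, 4.68 and 4.85) and leaving out each library. Python 3.11.15, NumPy 2.4.6, pandas 2.3.3, SciPy 1.17.1 and matplotlib 3.10.9 were used.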

Additional observations from a re-analysis of the deposited data

How the results depend on the processing

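Over the alternatives tried, the signs of 6 of the 7 gene differences held in all of them. The difference of Itgb5 and Itgb8, -0.51 log2 units, reversed to 0.26 with the highest transcript (exact two-sided sign-flip permutation p = 0.5, n = 3) and to 1.21 with summed transcripts (p = 0.25), and the cause was not tested. The 9 detected members became 15 with summed transcripts, 14 at 0.5 TPM, 5 at 5 TPM and 18 with scaling to nuclear protein-coding genes. The share of all protein-coding genes moved in the same directions, from 61.5% to 67.3%, 66.4%, 40.5% and 71.5% in that order. For alpha subunits the count of 3 became 6, 7 and 8 with summed transcripts, 0.5 TPM and scaling. For laminin chains the count of 3 became 6 with summed transcripts, 0 at 5 TPM and 6 with scaling. The median log2 level of all members, 0.27, became 0.37 with the highest transcript, 0.79 with summed transcripts, -1.70 with a pseudocount of 0.1, 2.64 over detected members and 0.99 with scaling. For alpha subunits, 0.21 became 0.27, 0.52, -2.0, 2.64 and 0.79 in the same order. For beta subunits, 0.32 became 0.76 with summed transcripts, -1.68 with the lower pseudocount, 3.25 over detected members and 1.05 with scaling. For laminin chains, 0.43 became 1.21, -1.17, 2.0 and 1.40 in that order. Leaving out any 1 library kept 9 detected members and the sign of all 7 differences, with Itgb5 minus Itgb8 between -0.60 and -0.36. No paired analysis was possible because the libraries form 1 group, with no second group whose replicate numbers could be matched. The gene differences were taken within each library. With 3 libraries no p under 0.25 can occur, and members at a few reads carry a large counting error.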
